A study of Mus musculus with 6 samples.

Results

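Chromatin accessibility in the distal forelimb buds of mid-gestation mouse embryos (E11.5) was measured by ATAC-seq, in which a transposase cuts and tags DNA that is not packed into nucleosomes. The 2 wild type libraries were compared with 2 Hox13-/- libraries, made from embryos that lack both Hoxa13 and Hoxd13 through the Hoxa13null and Hoxd13null alleles, all on a mixed C57Bl/6 and 129 background. Each library was made from 50000 cells of 1 embryo, whose left and right buds were pooled. Of the 61954 peaks in the table, 3472 (5.604%) had their midpoint more than 300 kb from the nearest start of a protein-coding transcript in the GENCODE annotation of the mm10 genome, and these are called desert peaks here. The other 58482 lay nearer, and 17938 of those lay within 1 kb of a start. A further 2 proximal forelimb libraries were not analysed here.

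Gene deserts are long stretches of the genome without protein-coding genes. Many hold enhancers, short sequences that bind transcription factors and raise the transcription of a gene far away on the same chromosome, and several of the best studied limb enhancers lie in such stretches beside developmental regulators. HOXA13 and HOXD13, together HOX13, are homeodomain transcription factors of the distal limb bud that digit formation depends on.

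A total of 5 desert peaks are shown as examples of each direction of change, namely the 3 lower and the 2 higher peaks past 2-fold in Hox13-/- that have the smallest p within their direction. Each line gives 300 bases around the peak's midpoint on the forward strand of GRCm38 (mm10), and capitals mark matches, on either strand, to the HOX13 words CAATAAA and CTCGTAAA or to a CTCF core word. The first spans chr9:94045954-94046253, the second chr2:137880404-137880703, the third chr11:112175288-112175587, the fourth chr3:20986154-20986453 and the fifth chr5:133482478-133482777. Each label names a coding gene on one side of the peak, which need not be the nearest. For the Plod2, Jag1 and Auts2 peaks the nearest start was that of 1190002N15Rik, Btbd3 and Castor2.
Plod2 peak (lower): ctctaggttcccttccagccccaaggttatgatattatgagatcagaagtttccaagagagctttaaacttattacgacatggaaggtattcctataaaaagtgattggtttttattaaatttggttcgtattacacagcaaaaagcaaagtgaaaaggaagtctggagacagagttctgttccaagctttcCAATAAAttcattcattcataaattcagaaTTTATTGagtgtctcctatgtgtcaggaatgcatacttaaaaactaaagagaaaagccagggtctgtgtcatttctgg
Jag1 peak (lower): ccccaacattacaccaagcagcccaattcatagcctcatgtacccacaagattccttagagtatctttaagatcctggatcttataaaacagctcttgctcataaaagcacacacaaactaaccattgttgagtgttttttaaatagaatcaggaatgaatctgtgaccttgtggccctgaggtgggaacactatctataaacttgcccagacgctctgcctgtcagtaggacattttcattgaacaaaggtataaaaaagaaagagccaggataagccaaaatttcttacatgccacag
Sox9 peak (lower): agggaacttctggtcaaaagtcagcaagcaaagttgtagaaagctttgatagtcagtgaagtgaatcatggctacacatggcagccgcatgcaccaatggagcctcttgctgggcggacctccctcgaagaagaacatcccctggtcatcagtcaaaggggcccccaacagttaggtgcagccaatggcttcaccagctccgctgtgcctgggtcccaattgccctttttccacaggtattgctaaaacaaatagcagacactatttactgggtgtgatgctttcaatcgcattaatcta
Agtr1b peak (higher): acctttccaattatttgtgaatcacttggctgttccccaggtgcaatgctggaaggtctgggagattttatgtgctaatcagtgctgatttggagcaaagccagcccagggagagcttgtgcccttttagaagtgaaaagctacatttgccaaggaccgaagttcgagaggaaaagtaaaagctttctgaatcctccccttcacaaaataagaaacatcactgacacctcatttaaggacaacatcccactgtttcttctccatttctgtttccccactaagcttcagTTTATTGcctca
Auts2 peak (higher): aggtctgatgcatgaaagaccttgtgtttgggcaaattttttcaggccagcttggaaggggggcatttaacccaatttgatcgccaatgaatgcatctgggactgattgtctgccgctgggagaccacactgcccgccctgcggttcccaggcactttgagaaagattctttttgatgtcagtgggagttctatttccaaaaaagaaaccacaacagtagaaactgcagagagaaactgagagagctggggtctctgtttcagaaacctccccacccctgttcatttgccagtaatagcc
The Plod2 peak held CAATAAA on each strand in this window and the Agtr1b peak held it once on the reverse strand, whereas the other 3 windows held none of the words.

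Over the desert peaks, accessibility was somewhat higher in Hox13-/- than in wild type, and its level was close to that of nearer peaks away from starts. Values are regularised log (rLog) values, a log2 scale on which libraries are scaled to each other and weak peaks are pulled towards their mean. The mean over the 3472 desert peaks was 4.52 in both wild type libraries, 4.62 in Hox13-/- replicate 1 and 4.63 in replicate 2. Both mutant libraries thus lay above both wild type libraries. Over all nearer peaks, those at starts included, the means were 4.94 in every library, and over the 40544 nearer peaks beyond 1 kb of a start they were 4.55 in both wild type libraries, 4.61 in Hox13-/- replicate 1 and 4.60 in replicate 2. The median difference, Hox13-/- minus wild type, was 0.12 on the log2 scale over desert peaks, 0.057 over nearer peaks beyond 1 kb of a start and -0.11 over the peaks within 1 kb of one. The difference was positive at 66.2%, 58.7% and 24.5% of these peaks, and over all nearer peaks the median was -0.011 with 48.2% positive. At the level of single peaks, the root mean square difference between the genotype means, each over 2 libraries, was 0.36 in the deserts and 0.28 over nearer peaks. Between single libraries it was 0.18 for the wild type and 0.17 for the Hox13-/- replicates in the deserts, and 0.18 for both over nearer peaks. In bulk tissue, fewer cells with an open site and less opening per cell cannot be told apart.

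By limma with Benjamini-Hochberg adjustment over all peaks, 799 desert peaks (23.0%) were higher in Hox13-/- and 325 (9.36%) were lower at an adjusted p under 0.05. Of all peaks tested, 11.4% were higher and 8.31% were lower by the same rule. Among nearer peaks 10.7% were higher and 8.24% lower, and among the 40544 nearer peaks that lay beyond 1 kb of a start the shares were 15.0% and 8.10%. The shares of lower peaks were thus close to each other, and the gap was in the higher ones. With each library centred on its median, 20.4% of desert peaks were higher and 11.2% lower, and of nearer peaks 9.08% were higher and 10.98% lower, so that the larger share among nearer peaks turned to the lower side. Peaks are not replicates, so no test was made between these shares. Past 2-fold, 27 desert peaks (0.778%) were higher and 15 (0.432%) lower, against 0.313% and 0.224% of all peaks and 0.405% and 0.294% of peaks from 1 to 300 kb. In the class from 200 to 300 kb the shares were 0.856% and 0.411%, close to those of the deserts.

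The share of higher peaks grew with distance up to about the limit used here and was level beyond it. It was 0.987% within 1 kb of a coding start, 14.4% from 10 to 50 kb, 20.8% from 200 to 300 kb and 23.5% from 300 to 400 kb. From 400 to 1000 kb each distance class held between 23.1% and 23.4% higher peaks, and the 184 peaks beyond 1000 kb held 16.3%. The share of lower peaks stayed between 7.12% and 9.72% in every class out to 1000 kb and was 12.5% beyond it. The 413 peaks in the last 20 kb before the limit and the 395 in the first 20 kb after it had median differences of 0.12 and 0.14.

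**Figure D1:**
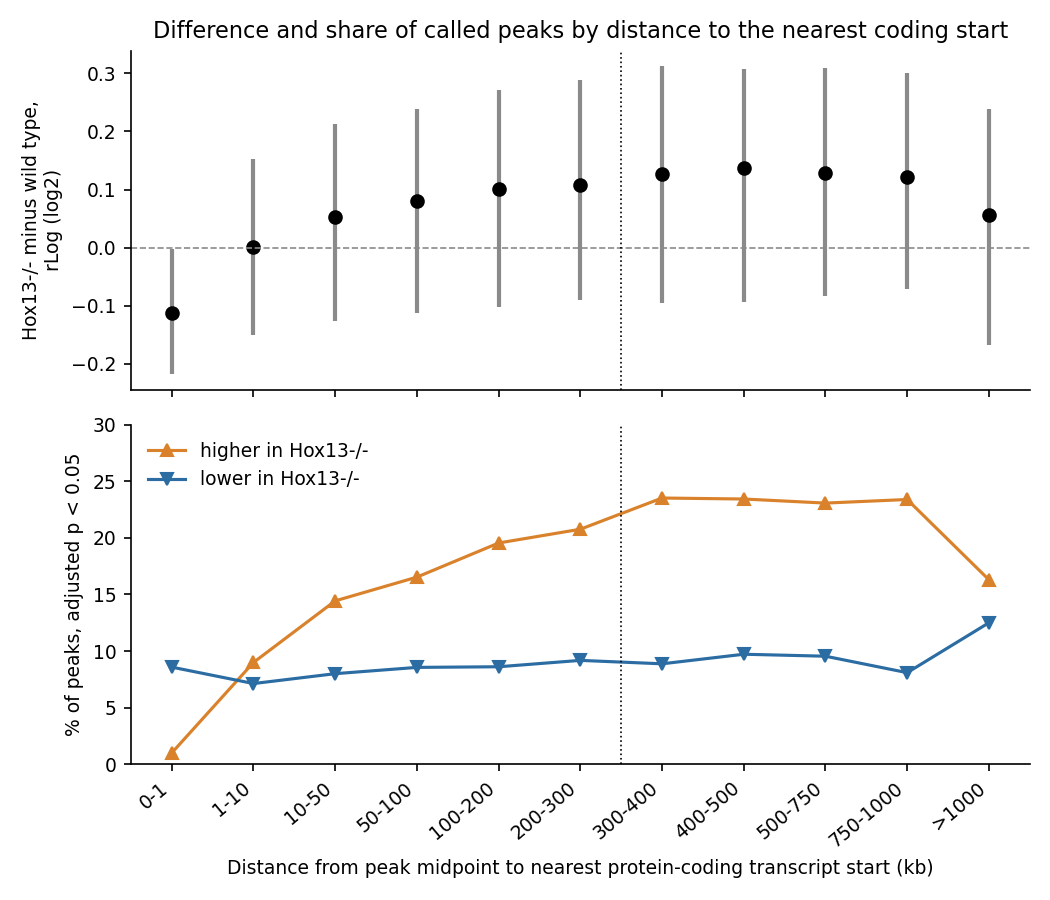
Upper panel, median difference in rLog (log2), Hox13-/- minus wild type, in classes of distance (kb) to the nearest coding transcript start, with bars from the lower to the upper quartile over peaks. Lower panel, percent of each class higher (orange) or lower (blue) at an adjusted p under 0.05. The dotted line is the 300 kb limit, beyond which the share of higher peaks was level near 23% until 1000 kb.

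Signal and base composition moved with these shares. Desert peaks had a median GC content of 45.1% and a median length of 238 bp, against 49.5% and 218 bp for peaks from 1 to 300 kb and 52.6% and 251 bp for all nearer peaks. In each of 4 equal classes of the table by mean rLog, desert peaks were more often higher than peaks from 1 to 300 kb, by 46.7% against 30.7% in the class of strongest signal and by 3.86% against 3.40% in the weakest. In each of 4 equal classes by GC content the share of higher peaks was also larger in the deserts, with 28.9% against 19.5% in the second lowest class, which held 1011 desert peaks. When the dependence of signal on GC content was removed from each library, 629 desert peaks (18.1%) were higher and 366 (10.5%) lower, while 8.13% of nearer peaks were higher and 8.13% lower. The median difference of the desert peaks was then 0.075.

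**Figure D2:**
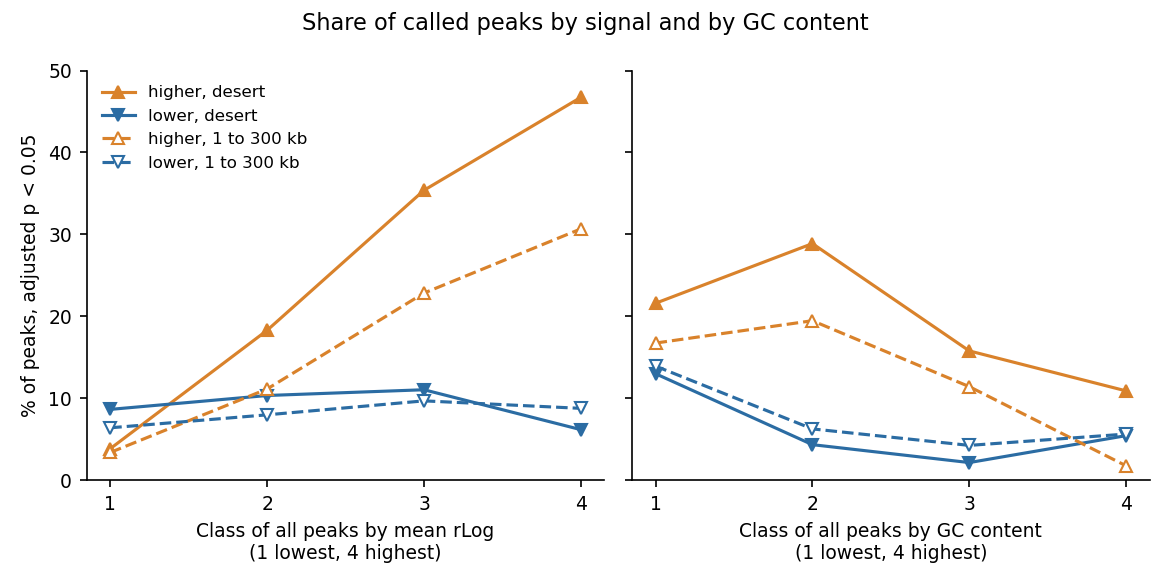
Percent of peaks called higher (orange) or lower (blue) in Hox13-/- at an adjusted p under 0.05, in 4 equal classes of all 61954 peaks by mean rLog (left) and by GC content (right). Filled symbols are desert peaks and open symbols peaks from 1 to 300 kb from a coding start. In the strongest class by signal 46.7% of desert peaks were higher.

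The 5 lower desert peaks with the smallest p lay in 5 different intervals between coding genes. The peak with the largest loss, at chr9:94045828-94046378, lay 492 kb from the nearest coding start, between Plod2, a collagen lysyl hydroxylase gene, and 1190002N15Rik. Wild type replicates 1 and 2 had rLog values of 6.53 and 6.29, and Hox13-/- replicates 1 and 2 had 4.97 and 4.72. Both mutant values were far below both wild type values. Its difference of -1.57 (SE 0.13) had a limma adjusted p of 1.2e-29, and it held 2 CAATAAA words.

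Between Jag1, which encodes a Notch ligand, and Btbd3, whose start was the nearer one at 376 kb, the peak at chr2:137880104-137881002 had rLog values of 7.26 and 7.47 in wild type, which fell to 6.02 and 6.11 in Hox13-/-. The genotypes did not overlap, and the difference was -1.31 (SE 0.13, limma adjusted p = 1.3e-21). The peak at chr11:112175000-112175874 lay 606.8 kb from Sox9, the regulator of cartilage formation. It stood at 7.11 and 7.10 in wild type and fell to 5.92 and 5.72 in Hox13-/-. That gap, -1.28 with an SE of 0.13 and a limma adjusted p of 1.5e-20, was larger than the spread between replicates of either genotype.

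The other 2 lay beside Irx1, a homeobox gene, and between Cmpk2 and Sox11, which encodes a SOX transcription factor. At chr13:71452738-71453449, 506.3 kb from Irx1, rLog fell from 5.84 and 5.83 in wild type to 4.51 and 4.55 in the mutant. In the interval from Cmpk2 to Sox11, at chr12:26810548-26811098 and 341.6 kb from Cmpk2, it fell from 6.77 and 6.57 to 5.38 and 5.47. Libraries of the same genotype lay close together at both. The differences were -1.30 (SE 0.13, limma adjusted p = 2.3e-20) and -1.25 (SE 0.13, limma adjusted p = 2.8e-19).

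Among the higher desert peaks, the one with the largest gain lay 619.1 kb from Agtr1b, an angiotensin receptor gene, at chr3:20985848-20986759. From 6.202 and 6.28 in wild type its rLog rose to 7.76 and 7.72 in Hox13-/-, a difference of 1.499 (SE 0.13, limma adjusted p = 9.8e-29). The second lay between Auts2, a gene active in neural development, and Castor2, at chr5:133482076-133483179. It rose from 6.26 and 5.90 in wild type to 7.62 and 7.49 in Hox13-/-. The wild type replicates were less close than at the other named peaks while the genotypes stayed apart. Its difference was 1.48 (SE 0.13, limma adjusted p = 1.0e-27).

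The third, at chr2:75350734-75351824, lay 308 kb from Hnrnpa3, an RNA-binding protein gene, on the side of the HoxD cluster that begins with Mtx2. It rose from 6.08 and 6.22 in wild type to 7.41 and 7.51 in the mutant (difference 1.31, SE 0.13, limma adjusted p = 1.0e-21). The fourth lay 730.9 kb from Lrrc4c, which encodes a synaptic adhesion protein, at chr2:95586987-95587524, where wild type replicates had 5.35 and 5.57 against 6.71 and 6.77 in the mutant (difference 1.28, SE 0.13, limma adjusted p = 2.8e-20). The fifth lay between Sema3d and Sema3a, both encoding secreted guidance cues, at chr5:13058964-13059804, where rLog rose from 6.07 and 6.09 to 7.31 and 7.34 (difference 1.25, SE 0.13, limma adjusted p = 9.9e-20). At all 3 the Hox13-/- libraries lay above the wild type libraries without overlap.

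**Figure D3:**
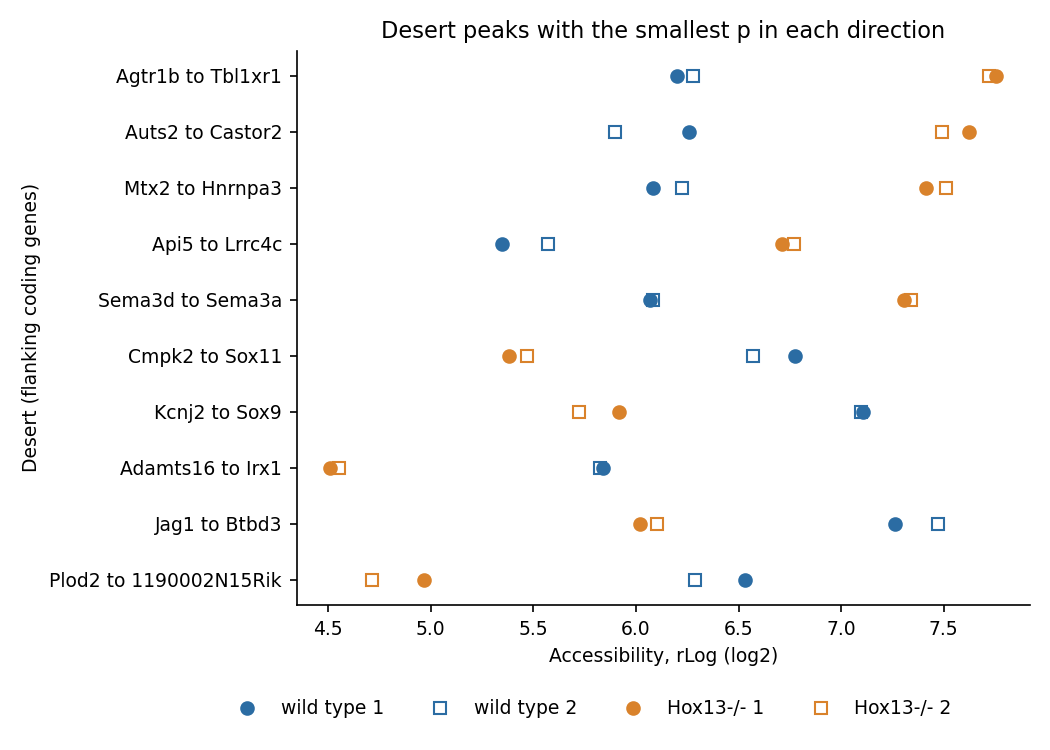
Accessibility (rLog, log2) in each library at the 5 higher and the 5 lower desert peaks with the smallest p, each labelled by the coding genes on either side. Blue symbols are wild type and orange Hox13-/-, with replicate 1 filled and replicate 2 open. The genotypes were apart by more than the replicates at every one of the 10 peaks, which were chosen among peaks with the genotypes apart.

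All 42 desert peaks past 2-fold had their wild type and Hox13-/- libraries apart. So did 2425 of the 3472 desert peaks and 34281 of the 58482 nearer ones. A difference past 2-fold is large beside the spread between replicates, so this count adds little to the 2-fold rule. The 15 lower ones lay in 12 deserts, 13 of them outside any gene, 1 in an intron of a long non-coding RNA gene and 1 in an intron of the coding gene Hs6st3, a heparan sulfate sulfotransferase. The 27 higher ones lay in 24 deserts, 17 outside any gene, 6 in introns of long non-coding RNA genes and 4 in introns of coding genes. One of the 4 was in Unc5d, a netrin receptor gene whose start was 474.8 kb away. Median GC content was 39.7% in the lower and 44.4% in the higher ones. All 42 were above the median desert peak, whose mean rLog was 4.47, in the genotype with the higher signal: the lowest wild type mean among the lower ones was 5.08 and the lowest Hox13-/- mean among the higher ones 5.41.

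CAATAAA was more frequent in lower than in higher desert peaks, as it was nearer to genes. It stood within the 300 bases around the midpoint of 22.5% of the 325 lower, 8.14% of the 799 higher and 11.54% of the 2348 other desert peaks, and of 6.55% of all peaks in the table. Among peaks from 1 to 300 kb it stood in 17.1% of the lower, 7.83% of the higher and 8.22% of all. Over whole peaks, whose median length was 270 bp for lower, 409 bp for higher and 192.5 bp for other desert peaks, the shares were 21.2%, 12.6% and 9.45%, so that the order of the higher and the other peaks turned. CTCGTAAA, a rarer HOX13 word, was found in the 300 bases of 2 lower (0.615%) and 5 higher (0.626%) desert peaks, and of 0.421% of all peaks. Of the 427 desert peaks with either HOX13 word, 17.3% were lower and 16.4% higher, whereas of the 3045 without one 8.24% were lower and 23.9% higher. CTCF is a factor that binds at boundaries of chromatin domains. Its core words AGGGGGCNC and AGGTGGCNC and AGAGGGCNC and AGATGGCNC were found on either strand in the 300 bases in 4.72% of desert peaks and 8.75% of all peaks. Median GC content was 41.6% in the lower, 45.7% in the higher and 45.3% in the other desert peaks, and the part of base composition in these frequencies was not tested.

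The 3472 desert peaks were spread over 513 intervals between neighbouring coding transcript starts. A single peak stood alone in 112 of them, the median interval held 4, and 120 intervals with 10 or more held 2096 of the peaks. Density was 7.90 peaks per megabase of sequence beyond 300 kb from a start and 29.9 per megabase within it. Chromosome 8 held the most desert peaks (325) and chromosome 17 the fewest (41), and the median difference was above 0 on each of the 19 autosomes that have peaks in the table, from 0.076 on chromosome 14 to 0.18 on chromosome 19.

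The interval with most desert peaks, 49, was the one between Zfp608, a zinc finger gene, and Gramd3, followed by the one between the potassium channel gene Kcnj2 and Sox9 with 43. Then came Mki67 to Mgmt with 39, Slc4a3 to Epha4 with 36, and Sel1l to Flrt2 and Ttll7 to Adgrl2 with 34 each. Zeb2 to Acvr2a and Sall1 to Tox3 held 33 each, and Ebf1 to Clint1 and Adgrl2 to Adgrl4 held 31 each. In these 10 the higher peaks outnumbered the lower ones except between Mki67, which encodes a proliferation marker, and Mgmt, a DNA repair gene, where 8 were lower and 6 higher, and between the anion exchanger gene Slc4a3 and the ephrin receptor gene Epha4, where 7 were lower and 7 higher.

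The Sox9 interval held the most higher peaks, 15 of 43 (34.9%), with 2 lower. Of all desert peaks 23.0% were higher and 9.36% lower, and of all peaks 11.4% and 8.31%. The mean over the 43 peaks of the Sox9 interval was 4.65 and 4.64 in wild type against 4.81 and 4.85 in Hox13-/-. The other 26 were not called, and one of the 2 lower ones is the peak described above. Between Mtx2 and Hnrnpa3, 11 of 21 desert peaks (52.4%) were higher and 1 lower, a larger share of higher peaks than in the Sox9 interval. The mean between Mtx2 and Hnrnpa3 was 4.61 and 4.62 in wild type against 4.96 and 4.94 in Hox13-/-. Between Sorcs3 and Sorcs1, both genes of sortilin-related receptors, 11 of 30 were higher. By limma 0 were lower, both at an adjusted and at an unadjusted p under 0.05.

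Fewer intervals went the other way. The 3 given here were picked from the 513 for their counts of lower peaks. Among all desert peaks 9.36% were lower, and among all peaks 8.31%. At an unadjusted p under 0.05 by limma, 470 of the 3472 desert peaks and 9229 of all 61954 peaks were lower. Between Plod2 and 1190002N15Rik, 6 of 12 desert peaks were lower and none higher by limma, with 8 lower and 0 higher at an unadjusted p under 0.05. The mean over its 12 peaks was 3.79 and 3.78 in wild type against 3.41 and 3.33 in Hox13-/-. Between Fat4, an atypical cadherin gene, and Intu, a gene needed for ciliogenesis, 8 of 27 were lower and 5 higher, with a median difference of -0.14. Between Pkn2 and Lmo4, a LIM-only cofactor gene, 6 of 23 were lower and 3 higher, with a median difference of -0.13. Of the 74 intervals with at least 5 called desert peaks, 60 held both directions, 13 held only higher and 1 held only lower ones.

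**Figure D4:**
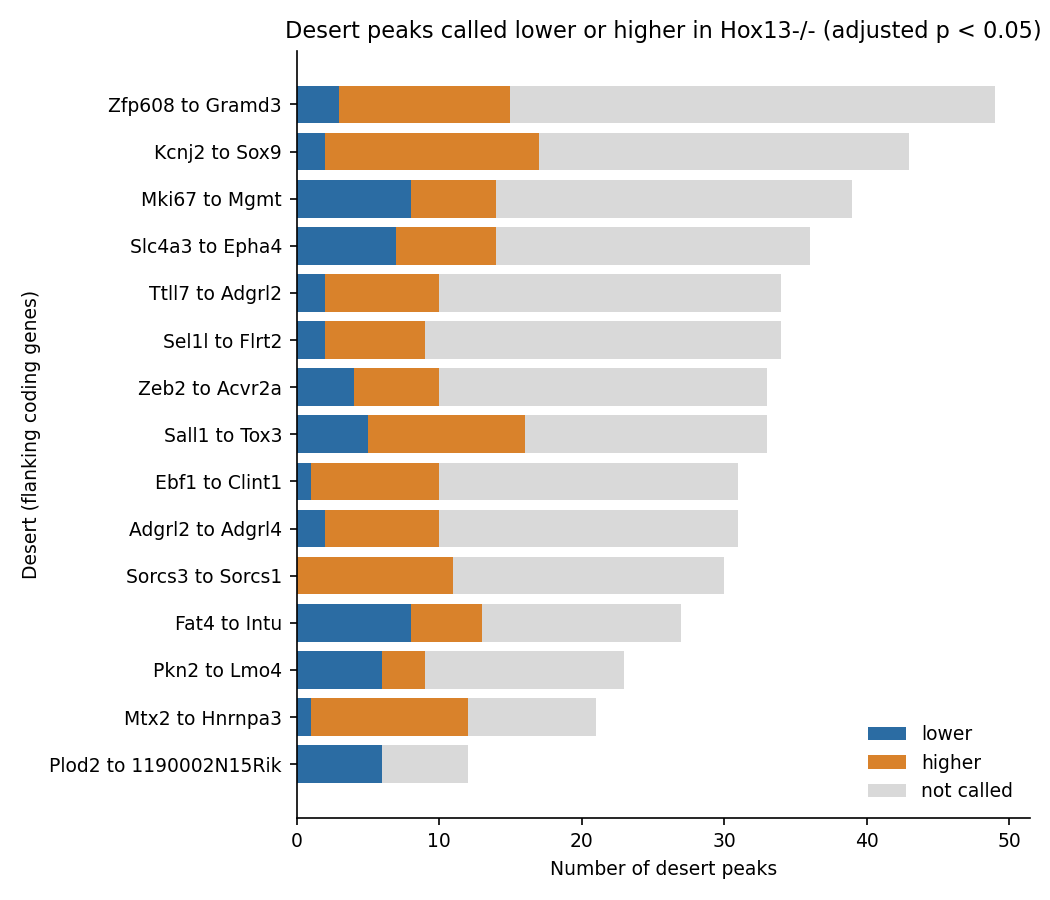
Number of desert peaks called lower (blue), higher (orange) or neither (grey) in Hox13-/- at an adjusted p under 0.05, in the intervals with most desert peaks, most lower or most higher ones, each labelled by the coding genes on either side. The Sox9 interval held 15 higher peaks, and the Plod2 interval 6 lower and no higher ones.

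A list of 118 limb regulators, drawn up with earlier results of these data known, was set beside these intervals. Of its genes 44 flanked at least 1 desert peak, and 473 desert peaks (13.6%) had such a gene on either side, against 5.00% of nearer peaks. Of the 473, 62 (13.1%) were lower and 107 (22.6%) higher. Of the 2999 desert peaks with no listed gene beside them 8.77% were lower and 23.1% higher. Listed genes flanked 7 of the 15 peaks that fell past 2-fold and 3 of the 27 that rose past 2-fold. The list holds Jag1, Sox9, Irx1 and Sox11, which flank lower peaks named above. These contrasts may thus be partly built in and are no independent support. Only the neighbouring coding gene on each side counted, so the 2 higher peaks past 2-fold between Mtx2 and Hnrnpa3 are not among the flanked ones. Among the flanked intervals, that between Med13l and the T-box gene Tbx3 held 17 desert peaks, of which 5 were higher and 1 lower. That between Nr2f2, a nuclear receptor gene, and Gm10295 held 16, of which 4 were higher and 4 lower, and that between Zfp516 and the zinc finger gene Tshz1 held 16, of which 5 were higher and 1 lower. Beside the growth factor gene Fgf9 5 of 14 were higher, between the ephrin receptor gene Epha7 and Map3k7 3 of 14, and between the zinc finger gene Sall3 and Galr1 2 of 13. Of 35 cadherin superfamily genes 22 flanked desert peaks, and of the 180 peaks beside them 43 (23.9%) were higher and 11 (6.11%) lower, set beside 23.0% and 9.36% of all desert peaks. Of the nearer peaks beside cadherin genes 16.2% were higher and 8.33% lower.

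Between Atp5g3 and Lnpk, on the centromeric side of the HoxD cluster, 9 of the interval's 45 peaks lay beyond 300 kb of a coding start. Of these 9, 5 were lower, 1 higher and 3 not called. Among all desert peaks 9.36% were lower and 23.0% higher, and among all peaks 8.31% and 11.4%. The interval's other peaks lay nearer to a start and are not described here. The lower peak with the largest difference, at chr2:74273811-74274014, fell from 4.27 and 4.23 in wild type to 3.75 and 3.48 in the mutant (difference -0.63, SE 0.13, limma adjusted p = 1.5e-05). The other 4 lower ones differed by -0.45 to -0.34. Leaving out 1 library ended the call at some of these 4, whichever library it was. Over all of these fits, with the call kept or lost, the differences at the 4 peaks lay between -0.60 and -0.27. The higher peak, at chr2:74265577-74266217, went from 5.88 and 5.76 to 6.39 and 6.38 (difference 0.57, SE 0.13, limma adjusted p = 0.00019).

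The desert peaks with the highest signal did not pass the test. The strongest, at chr12:97061395-97061831 and 1181.9 kb from Galc, stood at 14.51 and 14.45 in the wild type against 14.52 and 14.45 in the mutant libraries (limma adjusted p = 0.99). The next 3, near Nxph1, in the interval from Pcdh7 to G6pd2 and near Tyrp1, had genotype means between 12.22 and 12.91, and the fifth, also near Tyrp1, means of 11.64 and 11.90 with a limma adjusted p of 0.074. These 5 stood far above the median desert peak. Scaling decided their result, since cyclic loess scaling called all 5 higher, with differences of 0.32 to 0.53, as did quantile scaling, with 0.16 to 0.41, and the sign at the first 2 turned with median centring. The GC correction, with or without the replicate block, also called the fifth higher (0.50). The peak farthest from any coding start, 2548.9 kb from Pcdh20 at chr14:91020237-91020348, was a weak one, where wild type replicates had 3.29 and 3.28 against 2.99 and 2.97 in the mutant (difference -0.30, SE 0.11, limma adjusted p = 0.042), and it lost the call without the variance trend and when any one of the 4 libraries was left out, with differences from -0.31 to -0.30.

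The term desert fits these peaks only in the sense of coding starts. By the annotation 2552 (73.5%) lay outside any gene, 385 in introns and 61 in exons of long non-coding RNA genes, and 463 in introns and 11 in exons of coding genes whose start was farther off. Only 68 of the 3472 lay more than 300 kb from the transcript start of a gene of any type, and of these 14 were higher and 7 lower. Over all 3472 desert peaks, 799 (23.0%) were higher and 325 (9.36%) lower. Peaks with at least 50% repeat-masked bases made up 1.07% of desert peaks and 1.25% of nearer ones.

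The labels were set against known sites. The strongest peak within 1 kb of the start of Prrx1, a marker of limb mesenchyme, stood at 6.83 and 6.95 in the wild type and at 7.10 in both Hox13-/- libraries, and no peak lay within 1 kb of the start of the liver gene Alb or the heart gene Myh6. The forelimb label found no support at starts, where Tbx5, which marks the forelimb, had a weak peak at 3.78 and 3.84 in wild type and Tbx4, which marks the hindlimb, had 4.30 and 4.38. The start of Hoxa13 had 5.71 and 5.95 in the wild type against 5.66 and 5.84 in the mutant libraries, and the start of Hoxd13 had 4.35 and 4.34 against 3.99 and 4.17. Accessibility at a start does not check the genotype, since it can persist in a null allele.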

How the data were processed

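Per the submitters' processing notes and the methods, alignment to mm10 used Bowtie2 2.3.1, peaks of each library came from MACS2 2.1.1.20160309, and HOMER 4.9.1 merged and quantified them. The authors deposited 1 rLog value for each peak and library, on a log2 scale, in which DESeq2 scaled out library size and weak peaks are pulled to their own mean. The authors' own fold changes, p-values and peak call column were not used. The paper states read totals per library, which are not used here. Without read numbers per peak, the depth behind single peaks is unknown and counting intervals were not made. Handling of duplicates and of the transposase offset is not given in the sources used here.

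Distances ran from each peak's midpoint to GENCODE M21 protein-coding transcript starts. Sequence came from GRCm38. Differences were fitted over all 61954 peaks with limma 3.58.1 (R 4.3.3), with a variance trend, two-sided, adjusted by Benjamini-Hochberg. On simulated data for this comparison over 61954 peaks, it recovered 100 of 100 peaks changed by 1.5 and 100 of 100 changed by 0.75 on the log2 scale, and called 11 others. The simulated noise was independent and normal, with limma's own fitted spread and no embryo or library effect. Far fewer peaks were changed than were called in the data. The simulation therefore checks that the code runs as intended and not how reliable 2 libraries per genotype are. With 2 libraries against 2 the smallest two-sided exact permutation p is 0.333, so p-values rest on limma's shared spread. Named peaks were, in each direction, the 5 with the smallest p past 2-fold with genotypes apart and the 2 largest differences, then the 5 strongest, the farthest and those of the HoxD desert. Named intervals were the 10 with most members, the 5 with most lower or higher ones, and up to 10 beside listed limb genes. The members, the gene lists and the tests were chosen with earlier results of these data known.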

Additional observations from a re-analysis of the deposited data

How the results depend on the processing

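More desert peaks were higher than lower under each alternative run, with 1 exception past 2-fold (0 higher and 1 lower beyond 300 kb of a start of any gene type), and the median difference stayed above 0. The counts of 799 higher and 325 lower, 27 and 15 past 2-fold, followed the definition of a desert. They were 1406 and 593, and 52 and 27, beyond 200 kb; 281 and 123, and 14 and 7, beyond 500 kb, where the median difference was 0.12; and 14 and 7, and 0 and 1, beyond 300 kb of a start of any gene type, where it was 0.092. The median was 0.075 with the GC correction, with or without the replicate block, 0.090 with median centring, and 0.11 with cyclic loess or quantile scaling. It was 0.18 in the upper 75% of peaks by signal and 0.23 in the upper 50%. Of the 1491 desert peaks in the upper 50%, 582 (39.0%) were higher and 137 (9.19%) lower. Beyond 1.5-fold in place of 2-fold, 271 were higher and 108 lower. Leaving out 1 library, which assumes that the lone library of a genotype varies like the others, gave a median of 0.11 to 0.13, 547 to 597 higher and 221 to 267 lower, 25 to 32 and 16 to 20 past 2-fold. Same-numbered libraries did not deviate together (correlation -0.011), and the replicate block gave 797 higher and 319 lower.

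Of the named peaks, the 10 with the smallest p kept their call and sign under each alternative. At peaks that were not called the sign turned: at the strongest with the GC correction, also with the replicate block (-0.075), with median centring (-0.033) and within leaving out 1 library (-0.036 to 0.039), at the second strongest likewise (-0.069, -0.018, and -0.025 to 0.057), at the fourth within leaving out 1 library (-0.0070 to 0.092), and at chr2:74239502-74240013 (-0.31 to 0.18). The causes were not tested. Depth per peak is unknown, and rLog shrinks weak peaks, so the counts past 2-fold favour strong peaks.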
